A study of Homo sapiens with 6 samples.

Results

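Replication-dependent histone genes encode the linker histone H1 and the core histones H2A, H2B, H3 and H4, the proteins that package newly copied DNA into nucleosomes. They are mostly short genes without introns that stand in clusters, and they are transcribed in S phase from nuclear histone locus bodies, where the factor NPAT acts. Their RNAs end in a conserved stem-loop instead of a poly(A) tail, and SLBP, the protein that binds this stem-loop, takes part in their cutting, export, translation and decay. In dividing cells such as the 293T line, these RNAs are abundant and their level follows DNA synthesis. The genes were taken by symbol, as protein-coding genes named H1-1 to H1-6 or carrying the prefixes H2AC, H2BC, H3C and H4C. This rule took 69 of the 60669 genes counted, with 6 genes of class H1, 17 of H2A, 18 of H2B, 13 of H3 and 15 of H4. Of these, 34 lie in the first and 21 in the second of 2 stretches on chromosome 6, 11 lie in a first and 2 in a second group on chromosome 1, and 1, H4C16, lies on chromosome 12.

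The study sequenced total RNA of 293T cells, a human embryonic kidney line transformed with viral genes, with a stranded total RNA kit that does not select for poly(A) tails. Of its 6 libraries, 2 came from control cells with the genotype given as WT, 2 from cells in which CRISPR/Cas9 editing had knocked out MLL2 (MLL2 KO), and 2 from cells with a PRMT1 knockdown by a short hairpin RNA (PRMT1 KD). PRMT1 is the main enzyme that dimethylates arginines asymmetrically, and MLL2 is a methyltransferase of lysine 4 on histone H3. The series asked which genes differ in expression when either protein is depleted. No other agent is listed for any group. The labels do not say whether the knockout cells are 1 clone, which hairpin was used, or whether the control and knockout cells carried a hairpin, although the header names (WTshNT, MKshNT and WTshPR) differ in these letters. The 2 libraries of a group are described as biological replicates, with nothing on separate cultures, so each p-value rests on a spread between libraries that may be technical in part.

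The libraries held 20061471 to 22351532 counts in genes. PRMT1 stood at 306 and 319 CPM (counts scaled to 1e+06 per library) in control, 406 and 425 in MLL2 KO and 38.2 and 34.9 in PRMT1 KD, and in the knockdown it fell by 3.10 ± 0.09 (SE) on the log2 scale (adjusted p = 5.51e-16). The name MLL2 has been used for KMT2B and for KMT2D, and neither passed the test in MLL2 KO, with log2 changes of 0.02 ± 0.25 (KMT2B, adjusted p = 0.966) and 0.19 ± 0.26 (KMT2D, adjusted p = 0.661). In PRMT1 KD both rose. KMT2B measured 6.74 and 7.53 CPM in control and 13.4 and 26.7 in PRMT1 KD, and rose by 1.49 ± 0.24 (adjusted p = 3.06e-05). KMT2D measured 22.5 and 17 CPM in control and 37.8 and 95.5 in PRMT1 KD, and rose by 1.76 ± 0.25 (adjusted p = 8.42e-06). In both genes the second knockdown library lay well above the first. RNA levels do not check a gene edit that leaves the transcript in place. Neurofilament RNA, a known trait of 293 cells, was present, with NEFL at 347 and 352 CPM in control. Of 8 such kidney and neuronal markers 4 were lower and 3 higher in PRMT1 KD and 2 lower in MLL2 KO. Among all genes tested, 25.3% were lower and 22.2% higher in PRMT1 KD and 12.1% lower in MLL2 KO. Of 10 markers of other cell types 2 passed the count filter, and edgeR called 0 of them in either comparison (at an unadjusted p under 0.05, 0 in PRMT1 KD and 1 lower in MLL2 KO).

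The stem-loop that sets these RNAs apart was looked for in transcript sequences of GENCODE 29, in the first 100 bases after the stop codon. The 16-base pattern searched on the sense strand read GG, 2 bases of any kind, CTT, any base, T, any base, AG, 2 bases of any kind and CC. Only 31 of the 69 genes had at least 60 bases after the stop in that release, and 30 of the 31 held the pattern, all but H2BC11. Among 18666 other protein-coding genes 3 held it (0.0161%). The pattern came in 6 forms, which are shown here in 1 gene each because they carry the mark of the family. Capitals give the 16-base core, with 5 bases on each side.
H2BC13: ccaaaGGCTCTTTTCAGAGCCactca
H2AC11: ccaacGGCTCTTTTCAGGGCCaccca
H2BC5: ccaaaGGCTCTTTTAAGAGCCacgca
H3C6: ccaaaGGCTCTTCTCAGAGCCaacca
H4C2: ccaatGGCCCTTTTCAGGGCCgccca
H4C14: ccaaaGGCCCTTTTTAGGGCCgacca
The form shown for H2BC13 was held by 17 of the 30 genes, of classes H2A, H2B and H3. The forms shown for H4C2 (4 genes) and H4C14 (3 genes) were found in H4 genes, and the forms of H3C6 and H2AC11 in those single genes. A sequence match is a description of these letters and not a measure of processing.

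The promoters, taken from RefSeq (GRCh38.p14) for 64 of the 69 genes, differed in letters between the histone classes. In the 250 bases before the start, TATAAA on the sense strand was found in 37 of 64 (57.8%), against 7.17% of the 27305 promoters in the table. CCAAT on either strand was found in every H1, H2A, H2B and H3 promoter examined and in 3 of 13 H4 promoters, against 33% of all promoters. The window taken for H3C4 is the same stretch as that of H2AC7, so it was counted in both the H3 and the H2A class. The octamer ATTTGCAT on either strand, the site read by OCT1 (POU2F1), was found in 14 of 18 H2B and 11 of 16 H2A promoters, against 1.66% of all. In 11 head-to-head pairs of H2A and H2B genes the starts lie 194 to 248 bases apart. The genes of such a pair were searched over the same stretch, so a site may count for both. AAACACA on the sense strand was found in 5 of 6 H1 promoters and in 0 of the H2A, H2B, H3 and H4 promoters, against 2.57% of all. GGTCCG on the sense strand was found in 12 of 13 H4 promoters, 1 H2A and 1 H2B promoter, against 5.08% of all. Each word was counted on its own, so matches to different words may overlap, and AAACACA and GGTCCG were added to the search after the promoters had been looked at. The 150 bases before the start are shown for 3 genes whose RNA levels are described below, 1 for each of the H1, H4 and H2B patterns, with matches to the 5 words in capitals.
H1-4 (chr6:26156179-26156328, plus strand): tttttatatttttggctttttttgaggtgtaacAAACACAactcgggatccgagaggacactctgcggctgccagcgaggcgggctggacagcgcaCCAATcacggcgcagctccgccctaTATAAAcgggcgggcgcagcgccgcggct
H4C4 (chr6:26189113-26189262, minus strand): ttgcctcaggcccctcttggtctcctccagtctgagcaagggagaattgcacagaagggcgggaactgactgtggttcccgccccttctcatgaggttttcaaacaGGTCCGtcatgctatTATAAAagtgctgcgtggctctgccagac
H2BC12 (chr6:27146859-27147008, minus strand): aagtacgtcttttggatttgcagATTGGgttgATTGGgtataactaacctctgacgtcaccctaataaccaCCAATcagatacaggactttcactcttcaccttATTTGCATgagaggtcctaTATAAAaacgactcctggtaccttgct
Each window holds the word described for its class upstream of TATAAA.

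Histone RNA was highest in control, lower in MLL2 KO and lowest in PRMT1 KD. The counts of the 69 genes made up 2.13% and 2.23% of all counts in the 2 control libraries, 1.77% and 1.73% in MLL2 KO, and 1.05% and 0.939% in PRMT1 KD. Summed and scaled, they came to 22454 ± 774 CPM in control (SD, n = 2), 17991 ± 472 in MLL2 KO and 9445 ± 1017 in PRMT1 KD, so that the knockout stood at 80.1% and the knockdown at 42.1% of control. The 3 groups did not overlap in this sum. All 5 classes followed the same order, as the plot of class levels shows. In PRMT1 KD the sum stood at 34.9% of control for H1, 41.1% for H2A, 42.9% for H2B, 44.1% for H3 and 53.1% for H4. In MLL2 KO it stood at 73.5% for H1, 83.2% for H2A, 81% for H2B, 79.2% for H3 and 87.4% for H4. These sums were not tested. In bulk RNA, fewer cells in S phase and less histone RNA per cell cannot be told apart.

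**Figure D1:**
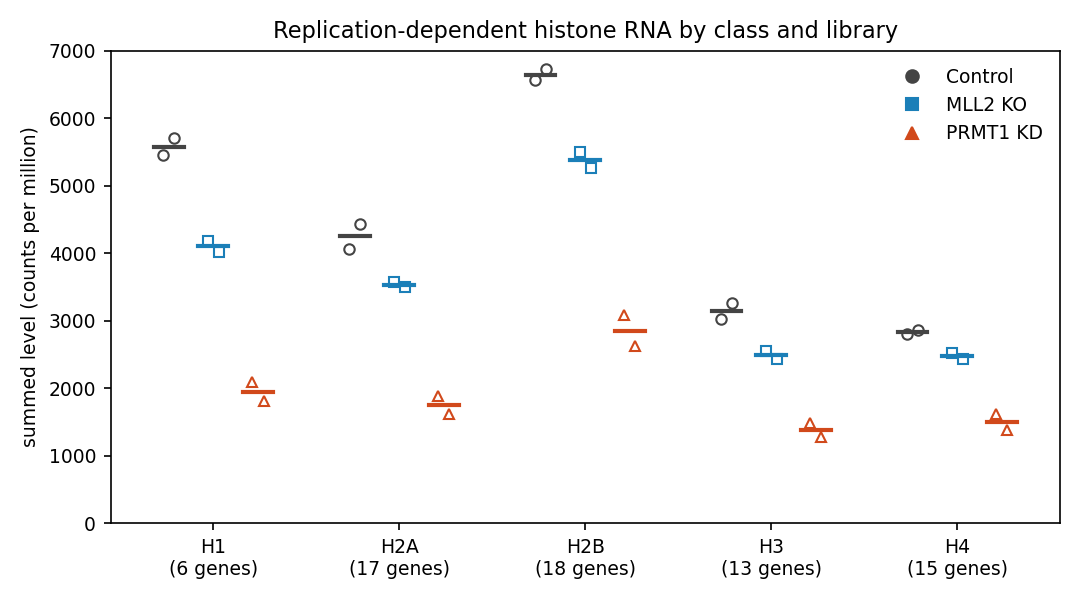
Summed level of each histone class in CPM (vertical axis, from 0) by class (horizontal axis). Points are single libraries and bars the mean of 2 libraries. In every class both PRMT1 KD libraries lie below both MLL2 KO libraries, which lie below both control libraries.

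The makeup of the histone RNA pool also shifted. Class H1 held 24.9% and 24.8% of the family's counts in control, 22.9% and 22.7% in MLL2 KO and 20.5% and 20.8% in PRMT1 KD. Class H4 went the other way, with 12.8% and 12.5% in control, 13.8% and 13.8% in MLL2 KO and 16% and 15.9% in PRMT1 KD. For H1 and H4 the 3 groups did not overlap. The share of H2B lay between 29.3% and 30.3% in all 6 libraries. Shares within a library do not depend on how libraries were scaled, and they were not tested.

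The knockdown was compared with control to ask which histone genes were behind this lower total. Of the 69 genes, 56 passed the count filter and were tested, and 46 of the 56 were lower in PRMT1 KD, 0 were higher and 10 did not pass (edgeR). Of all 17575 genes tested, 25.3% were lower and 22.2% higher. At an unadjusted p under 0.05, 48 of the histone genes were lower and 0 higher, and the Wald test of DESeq2 also called 0 higher. The median log2 change of the 56 was -1.20, against -0.04 over all genes tested, and 42 were at least 2-fold lower, against a background of 14%. In 51 of the 56 both knockdown libraries lay below both control libraries, which 38.5% of all genes tested did. Since genes pass the filter by being expressed somewhere, the 13 untested genes are described separately below. The 33 genes with a mean of at least 100 CPM, which hold 97.5% of the family's counts, were all lower, by 0.61 to 1.87 on the log2 scale.

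**Figure D2:**
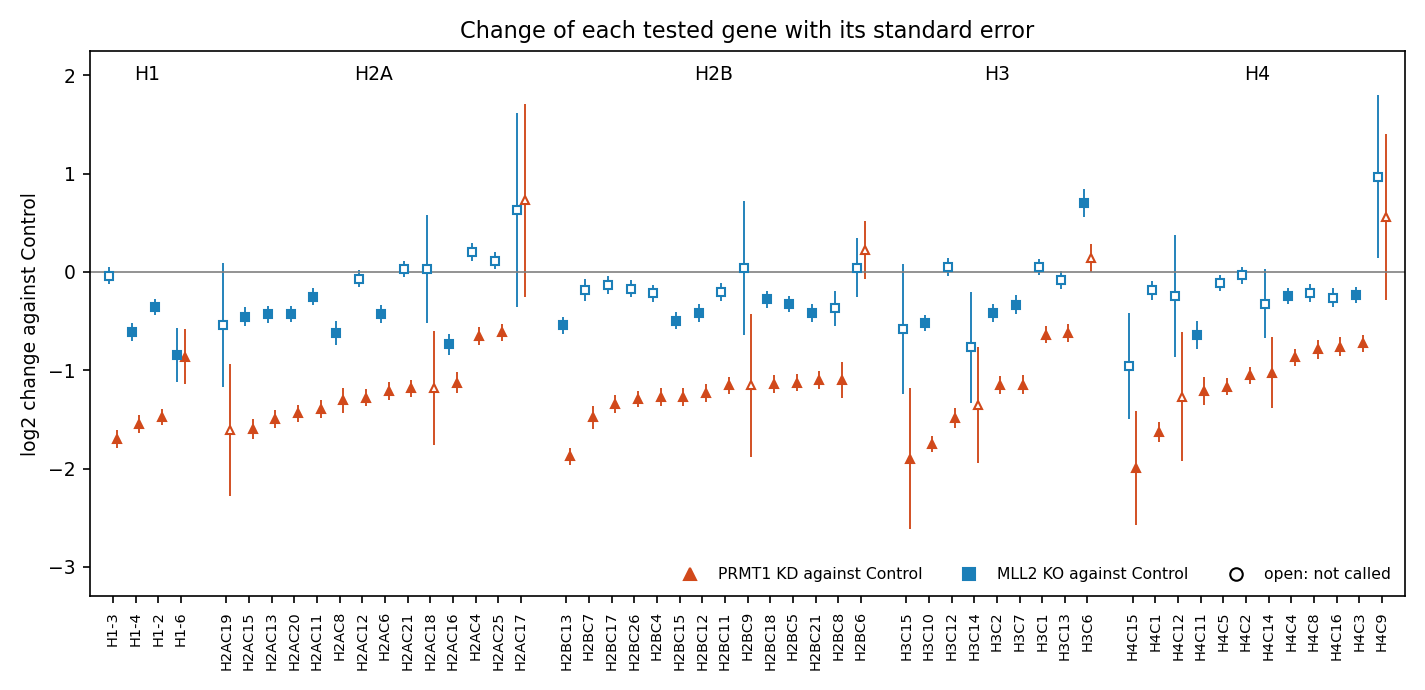
Log2 change against control with its standard error (vertical axis) for 53 tested genes, by class and in order of their change in PRMT1 KD. Triangles are PRMT1 KD, squares MLL2 KO, and filled symbols passed the test. H1-1, H2BC3 and H2AC14, with libraries at 0 counts, are left out. Nearly every triangle lies below the square of the same gene.

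Linker histone H1 binds the DNA that enters and leaves the nucleosome. The 2 most expressed H1 genes per kilobase of exon were H1-2 (chr6:26055740-26056470) and H1-4 (chr6:26156329-26157115), at a control mean of 3714 and 3210 CPM per kilobase, and they were also the highest of the whole family. H1-2 measured 2647 and 2783 CPM in control, 2161 and 2086 in MLL2 KO and 1034 and 920.1 in PRMT1 KD. H1-4 measured 2465 and 2588 CPM in control, 1686 and 1622 in MLL2 KO and 940.3 and 795 in PRMT1 KD. The 3 groups did not overlap for either gene. In PRMT1 KD, H1-2 fell by 1.47 ± 0.09 (SE) on the log2 scale (adjusted p = 4.49e-11) and H1-4 fell by 1.54 ± 0.09 (adjusted p = 4.62e-11). H1-3, a less abundant somatic H1, measured 331 and 327 CPM in control, 336 and 305 in MLL2 KO and 108 and 94 in PRMT1 KD. Its knockdown libraries lay far below all others, while control and knockout overlapped, and it fell by 1.70 ± 0.09 (adjusted p = 8.22e-12). H1-6, the testis H1, was scarce, with 6.09 and 5.95 CPM in control, 3.51 and 3.19 in MLL2 KO and 3.34 and 3.29 in PRMT1 KD. It was lower in the knockdown by 0.86 ± 0.28 (adjusted p = 0.0143), a call that was lost when exon length was corrected for and when either control library was left out.

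H2A and H2B form the dimers that flank the H3 and H4 core of the nucleosome. In PRMT1 KD 12 of 15 tested H2A genes and 13 of 15 tested H2B genes were lower, against 25.3% of all genes tested. Their median log2 changes were -1.28 and -1.23. H2AC20, the most expressed H2A gene per kilobase, measured 647 and 711 CPM in control, 514 and 496 in MLL2 KO and 265 and 237 in PRMT1 KD. H2AC12 measured 596 and 605 CPM in control, 579 and 568 in MLL2 KO and 270.5 and 225 in PRMT1 KD. In both genes the knockdown libraries were the lowest, and the knockout of H2AC12 lay just under control. In the knockdown, H2AC20 fell by 1.44 ± 0.09 and H2AC12 by 1.28 ± 0.09 (adjusted p = 5.41e-11 and 4.28e-10).

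Among H2B genes, H2BC12 measured 1187 and 1284 CPM in control, 948 and 903 in MLL2 KO and 569 and 485 in PRMT1 KD. Of its 50-base words, 74.1% are shared with another gene, so its counts hold only the reads that could be placed. H2BC5 measured 1070.0 and 1016 CPM in control, 842 and 826 in MLL2 KO and 510.4 and 445 in PRMT1 KD. Both showed 3 separate levels, and in the knockdown they fell by 1.23 ± 0.09 and 1.13 ± 0.09 (adjusted p = 7.11e-10 and 1.33e-09). H2BC13 had the largest fall in the family among genes with an average log2 CPM of at least 2. It measured 291 and 297 CPM in control, 207 and 198 in MLL2 KO and 86.2 and 74.3 in PRMT1 KD, a fall of 1.87 ± 0.09 in the knockdown (adjusted p = 2.03e-12). The smallest fall among called genes above that level was that of H2AC25, with 219 and 244 CPM in control, 246 and 255 in MLL2 KO and 160 and 142 in PRMT1 KD. It fell by 0.61 ± 0.09 (adjusted p = 6e-06), and its knockdown libraries still lay below all others.

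H3 genes of this family encode the replication-coupled H3 proteins. In PRMT1 KD 7 of the 9 tested were lower, against 25.3% of all genes tested, with a median log2 change of -1.15. H3C2 measured 1368 and 1452 CPM in control, 1100 and 1016 in MLL2 KO and 694 and 576 in PRMT1 KD, a fall of 1.15 ± 0.09 in the knockdown (adjusted p = 3e-09). H3C10 measured 872 and 952 CPM in control, 644 and 628 in MLL2 KO and 281 and 261 in PRMT1 KD, a fall of 1.75 ± 0.08 (adjusted p = 2.43e-12). The 3 groups were separate in both genes. As a share of all H3 counts, H3C10 went from 28.8% and 29.2% in control to 25.3% and 25.8% in MLL2 KO and 18.9% and 20.3% in PRMT1 KD. H3C6 behaved otherwise, with 18.9 and 21 CPM in control, 33.7 and 30.9 in MLL2 KO and 24.9 and 19.2 in PRMT1 KD. Its knockdown libraries overlapped control, with a log2 change of 0.14 ± 0.14 that did not pass (adjusted p = 0.428).

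H4 is encoded by many genes for the same protein. In PRMT1 KD 10 of the 12 tested were lower, against 25.3% of all genes tested, with a median log2 change of -1.04. H4C3, the most expressed, measured 806 and 800.4 CPM in control, 695 and 673 in MLL2 KO and 517 and 454 in PRMT1 KD. H4C4 measured 578 and 616 CPM in control, 506 and 502 in MLL2 KO and 351 and 303 in PRMT1 KD. Groups did not overlap in either gene, and the falls in the knockdown were 0.73 ± 0.08 and 0.87 ± 0.09 (adjusted p = 4.3e-07 and 5.59e-08). H4C1 measured 145 and 160 CPM in control, 142 and 125 in MLL2 KO and 54.5 and 44.2 in PRMT1 KD. Its fall of 1.63 ± 0.10 was the largest of the H4 genes above an average log2 CPM of 2, in a class whose other abundant members fell by less (adjusted p = 1.57e-10).

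The change in the knockdown was spread over all the clusters. The share to set beside these counts is that of all genes tested, 25.3% lower and 22.2% higher. In the first stretch of chromosome 6, 21 of 25 tested genes were lower (median log2 change -1.15), and in the second stretch 14 of 17 (-1.28). On chromosome 1, 8 of 11 were lower in the first group (-1.18) and 2 of 2 in the second (-0.95), and H4C16 on chromosome 12 was lower by 0.76 ± 0.10. Genes outside the family within the same part of chromosome 6 did not share the shift. Of 29 tested there, 7 were lower (24.1%, near the 25.3% of all genes tested) and 4 higher, with a median log2 change of -0.02. The difference between these neighbours and the histone genes was not tested.

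**Figure D3:**
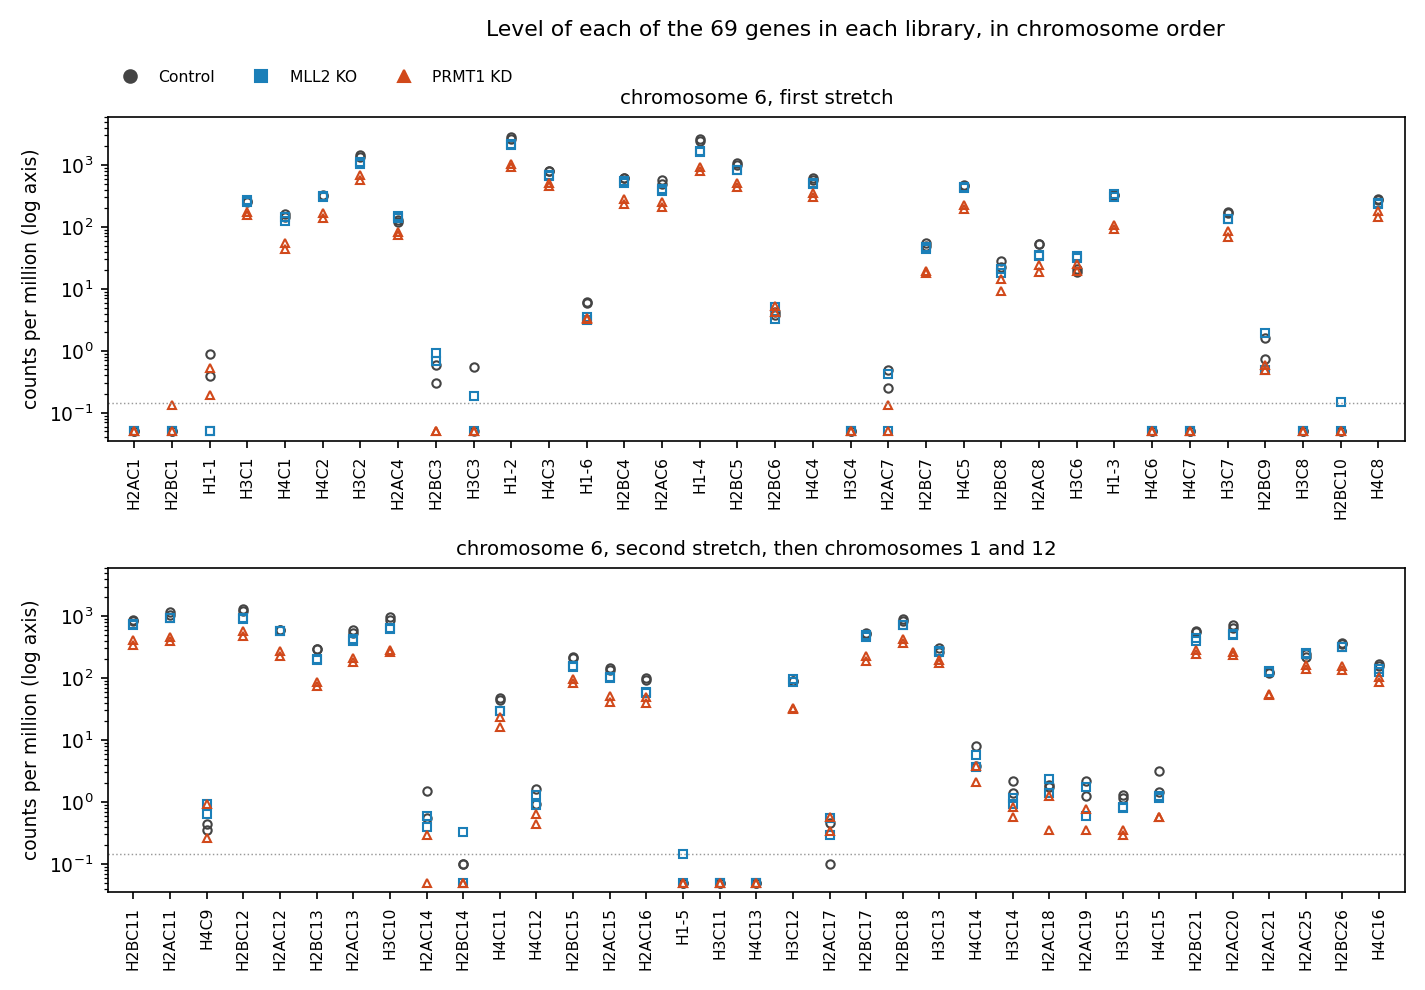
Level of each of the 69 genes in CPM (vertical log axis), in order along chromosome 6 and then chromosomes 1 and 12. Circles are control, squares MLL2 KO and triangles PRMT1 KD libraries, a count of 0 is drawn at the bottom, and the dotted line marks 3 counts. Abundant genes alternate with genes at or near 0, and in the abundant ones the triangles lie lowest.

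Neighbouring genes could be compared within a library, where scaling cancels. H2A and H2B genes often stand head to head, and 11 such pairs had RefSeq starts 194 to 248 bases apart. In 7 of them both genes had at least 30 counts in every library. The pair of H2AC25 and H2BC26 on chromosome 1 showed the largest shift. Its promoter windows overlap, and they are printed because both genes read the same stretch of DNA in opposite directions, with matches to the 5 words, here CCAAT on either strand, in capitals.
H2AC25 (chr1:228457874-228458023, minus strand): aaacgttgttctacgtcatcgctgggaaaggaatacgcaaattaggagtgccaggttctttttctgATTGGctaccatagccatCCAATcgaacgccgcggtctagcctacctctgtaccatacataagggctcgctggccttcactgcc
H2BC26 (chr1:228457953-228458102, plus strand): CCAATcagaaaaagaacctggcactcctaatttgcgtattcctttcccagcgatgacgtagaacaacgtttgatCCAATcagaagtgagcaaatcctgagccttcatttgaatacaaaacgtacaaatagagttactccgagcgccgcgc
The ratio of H2AC25 to H2BC26 counts was 0.627 and 0.665 in control, 0.77 and 0.802 in MLL2 KO and 1.02 and 1.05 in PRMT1 KD, and the 3 groups did not overlap. In the knockdown H2AC25 fell by 0.61 ± 0.09, while H2BC26, named after its values were seen, fell by 1.29 ± 0.09 (adjusted p = 2.24e-10).

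In the pair of H2AC13 and H2BC13, which holds the gene with the largest fall, the ratio was 1.81 and 1.99 in control, 2.06 and 2.04 in MLL2 KO and 2.48 and 2.46 in PRMT1 KD. H2AC13 shares 62.3% of its 50-base words with H2AC14, so its counts hold only the reads that could be placed. Here too the H2A gene kept more of its RNA than its partner. The opposite was seen for H2AC20 over H2BC21, at 1.18 and 1.22 in control, 1.15 and 1.25 in MLL2 KO and 0.942 and 0.964 in PRMT1 KD. Of the 7 pairs, the H2A to H2B ratio in the knockdown lay above both control libraries in 2, below both in 3 and overlapped in 2. In MLL2 KO it lay above control in 2, below in 1 and overlapped in 4. For single genes such separation was common. Of all 17575 genes tested, 6774 lay below and 6145 above both control libraries in PRMT1 KD, and 5710 and 5289 in MLL2 KO. The share among other gene pairs was not worked out. H3C1 (chr6:26020451-26020958) and H4C1 (chr6:26021649-26022050), neighbours on the same strand that were singled out after their values were seen, differed more. Their ratio was 1.74 and 1.62 in control, 1.92 and 2.04 in MLL2 KO and 3.21 and 3.47 in PRMT1 KD. No test was run on these ratios, which have 2 values a group.

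**Figure D4:**
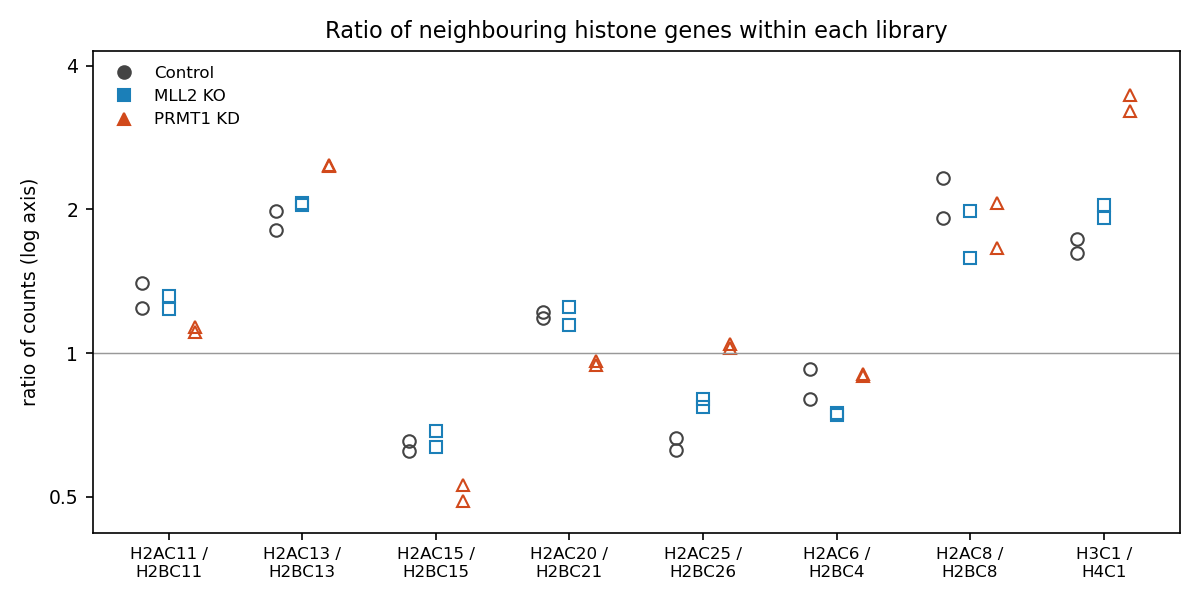
Ratio of the counts of neighbouring histone genes within each library (vertical log axis) for 7 head-to-head pairs of H2A and H2B genes and for H3C1 over H4C1. Each point is 1 library. The ratio of H2AC25 to H2BC26 goes from 0.627 and 0.665 in control to 1.02 and 1.05 in PRMT1 KD.

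The knockout was compared with control in the same fit. In MLL2 KO, 23 of the 56 tested histone genes were lower, 1 was higher and 32 did not pass, against 12.1% lower among all genes tested. The median log2 change was -0.26, against -0.01 over all genes. In 37 genes both knockout libraries lay below both control libraries, against 32.5% of all genes tested. The count of lower genes moved with the libraries used. It was 15 and 8 without control replicate 1 and 2, 14 and 10 without MLL2 KO replicate 1 and 2, and 31 without either PRMT1 KD library, while the median stayed between -0.345 and -0.19. The lower genes were 4 of 5 tested H1 genes, 7 of 15 H2A, 6 of 15 H2B, 3 of 9 H3 and 3 of 12 H4.

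The largest falls above an average log2 CPM of 2 were those of H1-6, H2AC16 and H4C11. H2AC16 measured 99.4 and 93.9 CPM in control, 57.2 and 59 in MLL2 KO and 49.3 and 39.3 in PRMT1 KD, so both depletions lay below control. It was lower in the knockout by 0.73 ± 0.10 (adjusted p = 4.13e-05). H2AC16 overlaps on the same strand with exons of H2BC15, where a read that fits both genes may be left uncounted. H4C11 measured 44.1 and 47.3 CPM in control, 29.7 and 29 in MLL2 KO and 23.6 and 16.1 in PRMT1 KD, and was lower in the knockout by 0.64 ± 0.14 (adjusted p = 0.00234). H4C11 shares 81.2% of its 50-base words with H4C12, so reads that fit both genes may have been dropped for low mapping quality. H1-6 was lower by 0.84 ± 0.28 (adjusted p = 0.0328), and this call was lost with DESeq2 and without any 1 of the 4 control and knockout libraries.

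The abundant H1 genes changed unequally in the knockout. H1-4 fell by 0.61 ± 0.09 (adjusted p = 4.92e-05) and H1-2 by 0.35 ± 0.08 (adjusted p = 0.00441), while H1-3 had a change of -0.04 ± 0.09 (adjusted p = 0.807). The ratio of H1-4 to H1-2 counts was 0.931 and 0.93 in control, 0.78 and 0.778 in MLL2 KO and 0.909 and 0.864 in PRMT1 KD. The knockout libraries had the lowest values, apart from both other groups. This pair was not picked by a set rule, and its ratio was not tested. Among the other most expressed genes, H3C10 fell by 0.52 ± 0.08, H2AC20 by 0.43 ± 0.08, H2BC12 by 0.42 ± 0.09, H3C2 by 0.41 ± 0.09 and H2BC5 by 0.32 ± 0.08 (adjusted p from 0.000114 to 0.0083). Without control replicate 2 the calls of H1-2, H2AC20, H2BC12, H3C2 and H2BC5 were lost. That of H2BC5 was also lost without control replicate 1 and without either MLL2 KO library, that of H1-2 without either MLL2 KO library, and those of H2BC12 and H3C2 without MLL2 KO replicate 2. The calls of H1-4 and H3C10 held without each library in turn. H4C3 and H4C4 fell by 0.23 ± 0.08 and 0.24 ± 0.09 (adjusted p = 0.0487 and 0.0429), calls that were lost with relative log expression scaling and without any 1 of the 4 control and knockout libraries.

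H3C6 was the 1 gene that rose in MLL2 KO, by 0.70 ± 0.14 (adjusted p = 0.00119), against 10.3% of all genes tested that were higher. Its values, given above, place both knockout libraries above all 4 others. H2AC4 (121 and 128 CPM in control, 150 and 137 in MLL2 KO, 83.8 and 75 in PRMT1 KD) and H2AC25 also had knockout libraries above control, with log2 changes of 0.21 ± 0.09 and 0.11 ± 0.09 that did not pass (adjusted p = 0.104 and 0.375). Both genes were among those with the smallest falls in PRMT1 KD. H2BC6, at 4.29 and 3.79 CPM in control, 5.08 and 3.24 in MLL2 KO and 4.16 and 5.27 in PRMT1 KD, overlapped in every comparison.

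The 2 depletions were also compared directly, in the same fit. Of the 56 genes, 42 were lower in PRMT1 KD than in MLL2 KO, 1 was higher and 13 did not pass, against 21.4% lower and 19.4% higher among all genes tested. In 48 both knockdown libraries lay below both knockout libraries, against 35.1% of all genes tested. The median log2 difference was -0.90, against 0.01 over all genes. All 33 genes with a mean of at least 100 CPM were lower in the knockdown, by 0.49 to 1.66. The differences were largest for H1-3 (-1.66 ± 0.09), H3C12 (-1.54 ± 0.10) and H4C1 (-1.44 ± 0.10), with adjusted p of 3.61e-11, 2.62e-10 and 1.56e-09. H3C12 measured 89.4 and 88.8 CPM in control, 97.5 and 87.2 in MLL2 KO and 32.5 and 31.2 in PRMT1 KD, so control and knockout overlapped and the knockdown stood apart. Exons of H3C12 overlap on the same strand with H2AC17, where a read that fits both genes may be left uncounted. At the other end, H2AC16 differed by -0.39 ± 0.11 (adjusted p = 0.00553), a call lost with a correction for exon length, and H1-6 by -0.02 ± 0.29 and H2BC6 by 0.18 ± 0.30 did not pass (adjusted p = 0.969 and 0.669). H1-1 was the gene called higher, and it is scarce. It had 18 and 8 counts in control, 0 and 0 in MLL2 KO and 4 and 12 in PRMT1 KD. Set against the floor of 3 counts a library, it was at least 2.52-fold higher in the knockdown than in the knockout. It was at least 4.52-fold lower in the knockout than in control. Both calls were lost without either MLL2 KO library, in a fit of the 2 groups alone and with at least 10 counts in every library. The call against control was also lost with DESeq2 and without control replicate 1, and the call against the knockdown without PRMT1 KD replicate 2.

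Members of low count limit what can be said of them. Of the 13 genes that did not pass the filter, none had more than 11 counts in any library, and H3C4, H3C8, H3C11, H4C6 and H4C7 had 0 in all 6. In 11 of the 13, no more than 10% of the 50-base words of the exon are shared with another gene. The other two, H3C4 and H2AC7, overlap on the same strand with exons of another gene (ENSG00000282988), where a read that fits both genes may be left uncounted. The 13 include H1-5, H2AC1, H2BC1, H2BC10, H2BC14, H3C3 and H4C13. A count of 0 in a library allows up to 3 counts, or 0.132 to 0.15 CPM, for counting error only. H2BC3 had 6 and 12 counts in control, 20 and 14 in MLL2 KO and 0 and 0 in PRMT1 KD, and was at least 3.22-fold lower in the knockdown than in control. This call was lost without control replicate 2, in a fit of the 2 groups alone and with at least 10 counts in every library. With H1-1 and H2BC3 set to such bounds, the medians of the 3 comparisons were -1.20, -0.26 and -0.90, as before.

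Near-identical copies of H2A, H3 and H4 genes on chromosome 1 were counted at low levels. H2AC18 measured 1.75 and 1.87 CPM in control, 2.31 and 1.37 in MLL2 KO and 1.26 and 0.351 in PRMT1 KD. H2AC19 measured 2.2 and 1.23 CPM in control, 1.76 and 0.589 in MLL2 KO and 0.774 and 0.351 in PRMT1 KD. Both H2A copies had their lowest value in the second knockdown library. H3C14 measured 1.4 and 2.17 CPM in control, 1.16 and 0.932 in MLL2 KO and 0.822 and 0.571 in PRMT1 KD. H3C15 measured 1.15 and 1.28 CPM in control, 0.786 and 0.834 in MLL2 KO and 0.29 and 0.351 in PRMT1 KD. The knockdown libraries lay lowest in both H3 copies. H4C14 measured 8.13 and 3.79 CPM in control, 5.78 and 3.73 in MLL2 KO and 3.77 and 2.11 in PRMT1 KD. H4C15 measured 3.19 and 1.43 CPM in control, 1.16 and 1.23 in MLL2 KO and 0.58 and 0.571 in PRMT1 KD. In the H4 copies the first control library stood well above the second. Between 95.1% and 100% of their 50-base words are shared with another gene, and reads of low mapping quality were dropped, so these counts hold only the reads that could be placed. Of the 6, H3C15, H4C14 and H4C15 were lower in PRMT1 KD (adjusted p = 0.0339, 0.024 and 0.00708), while H2AC18, H2AC19 and H3C14 did not pass. The calls of H3C15, H4C14 and H4C15 were lost without control replicate 1. Those of H3C15 and H4C14 were also lost without PRMT1 KD replicate 2 and with a correction for exon length. That of H3C15 was lost as well without control replicate 2, without PRMT1 KD replicate 1 and with at least 10 counts in every library. Without genes of shared sequence or overlapping exons, 30 of 34 tested members were lower in the knockdown, against 25.3% of all genes tested. Their median log2 change was -1.15.

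Exon length was read beside the result in several sets. Among all genes tested, 25.3% were lower and 22.2% higher in PRMT1 KD. Of the other protein-coding genes with under 1000 bases of exon, 62 of 123 were lower in PRMT1 KD and 8 higher, with a median log2 change of -0.52. Of those with a mean of at least 100 CPM, 14 of 17 were lower and 2 higher, with a median of -0.54. That share of 82.4% lower was much the same as the 82.1% of the 56 histone genes tested. At this level of 100 CPM all 33 histone genes were lower, with a median of -1.18. Of all other genes under 1000 bases, coding or not, 168 of 1723 were lower and 189 higher, with a median of 0.10. Within the family, 30 of 35 tested genes under 1000 bases were lower (median -1.23) and 16 of 21 longer ones (median -1.15), and across the 56 genes the Spearman correlation of the change with exon length was 0.12, a description of genes that share libraries. With a correction for exon length, 43 histone genes were lower in the knockdown and the median was -0.96, and with length and GC content 42 and -0.94. The second knockdown library lay below the first for histone genes, by a median of 0.23 on the log2 scale, and for the other short genes, by 0.22. The part of RNA length or quality in the change was not tested further.

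Genes that act on histone RNA and S phase were read beside the family, as the plot of gene lists shows. For each list the shares to set beside its counts are those of all genes tested, 25.3% lower and 22.2% higher in PRMT1 KD and 12.1% lower and 10.3% higher in MLL2 KO. Of 24 S phase replication genes, 10 were lower and 4 higher in PRMT1 KD, with a median log2 change of -0.18. PCNA, the sliding clamp, and CDC6, which loads the replicative helicase, each fell by 0.56 (adjusted p = 4.08e-05 and 6.76e-06), and MCM5, a helicase subunit, rose by 0.69 ± 0.08 (adjusted p = 5.71e-07). In MLL2 KO 2 were lower and 6 higher, with CDC6 rising by 0.37 ± 0.08 and FEN1, a flap nuclease, by 0.47 ± 0.08 (adjusted p = 0.00184 and 0.000351). The difference between this list and the histone genes was not tested.

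Of 8 genes for histone gene transcription, 4 were higher and 2 lower in PRMT1 KD, against 22.2% and 25.3% of all genes tested. NPAT measured 55.4 and 59.3 CPM in control, 68.1 and 71.2 in MLL2 KO and 78.5 and 80.7 in PRMT1 KD, and rose by 0.47 ± 0.09 in the knockdown (adjusted p = 0.000256) and by 0.28 ± 0.09 in the knockout (adjusted p = 0.0348). The groups did not overlap, and their order was the reverse of that of the histone sum. The difference of 0.19 ± 0.09 between the knockdown and the knockout did not pass (adjusted p = 0.101). POU2F1 and CRAMP1, a regulator of H1 genes, rose in the knockdown by 0.79 ± 0.13 and 1.15 ± 0.19. The second knockdown library lay above the first in both, with 61.1 and 82.6 CPM for POU2F1 and 18.9 and 30.3 for CRAMP1. CCNE1 and CCNE2, the cyclins E whose kinase activates NPAT at the start of S phase, fell in the knockdown by 0.84 ± 0.13 and 0.91 ± 0.14 (adjusted p = 1.8e-05 and 1.61e-05). In MLL2 KO, CASP8AP2, a component of histone locus bodies, fell by 0.50 ± 0.09 (adjusted p = 0.000402).

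Of 21 genes for histone RNA processing and decay, 9 were lower and 8 higher in PRMT1 KD (25.3% and 22.2% of all genes tested), and 1 lower and 9 higher in MLL2 KO (12.1% and 10.3%). SLBP measured 156 and 155 CPM in control, 164 and 162 in MLL2 KO and 137 and 113 in PRMT1 KD, and it fell by 0.31 ± 0.09 in the knockdown (adjusted p = 0.00774). MIF4GD (SLIP1), which links SLBP to translation, fell by 1.96 ± 0.20, and UPF1, a helicase of histone RNA decay, rose by 0.89 ± 0.09 (adjusted p = 7.72e-08 and 7.19e-08). LSM11, a subunit of the particle that cuts histone RNA, fell by 0.53 ± 0.09 in the knockdown and by 0.46 ± 0.09 in the knockout (adjusted p = 6.69e-05 and 0.00109).

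Of 22 histone chaperones, 7 were lower and 11 higher in PRMT1 KD (25.3% and 22.2% of all genes tested), with NAP1L1 falling by 0.92 ± 0.08 and UBN2 rising by 1.84 ± 0.14. UBN2 measured 92.4 CPM in the first and 133.9 in the second knockdown library. In MLL2 KO 1 chaperone was lower and 8 were higher. Replacement histones, which are made also outside S phase and mostly from polyadenylated RNA, were mostly lower in the knockdown. Of 11 tested, 8 were lower and 1 higher, with a median log2 change of -0.65. H2AZ1, which replaces H2A at promoters, measured 706 and 709 CPM in control, 746 and 695 in MLL2 KO and 316 and 259 in PRMT1 KD, and fell by 1.30 ± 0.09 in the knockdown (adjusted p = 5.23e-10), while its near twin H2AZ2 rose by 0.51. H3-3B and H2AX did not pass. In MLL2 KO 1 of the 11 was lower, MACROH2A2, by 0.46 ± 0.09 (adjusted p = 0.00098). The 2 comparisons with control share its libraries.

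**Figure D5:**
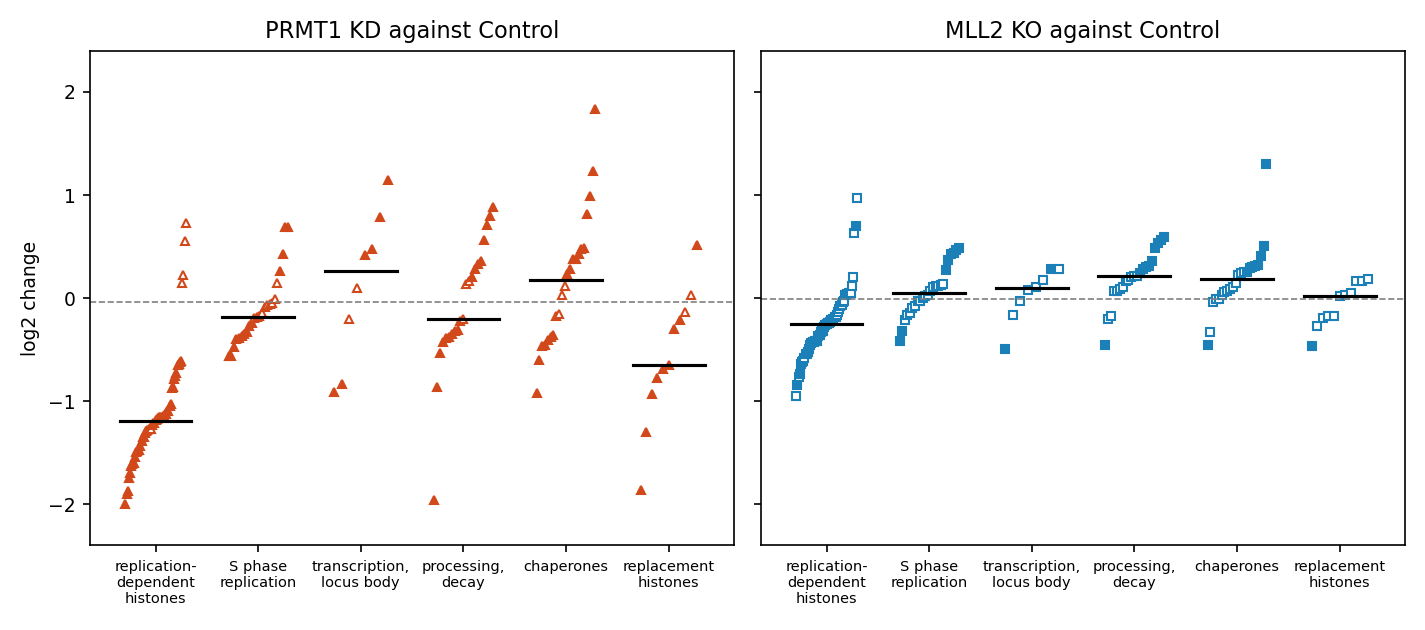
Log2 change (vertical axis) of each tested gene in PRMT1 KD (left) and MLL2 KO (right) against control, for the 53 histone genes plotted by change and 5 lists of related genes. Filled symbols passed the test, bars are the median of each list and the dashed line is the median of all genes tested. The histone median is -1.20 on the left and -0.26 on the right.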

How the data were processed

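Per the file headers, the authors' deposited tables hold raw counts of reads per gene, made with featureCounts 2.0.1 on GENCODE 34 (minimum mapping quality 10, paired, strand setting 2), with the exon length of each gene beside them, another value that the authors deposited. Per the submitters' processing notes, the tools were FastQC 0.11.4, Trim Galore 0.6.10 (trimming), STAR 2.7.5a (alignment, build hg38), featureCounts 1.5.0-p1 and DESeq2 1.36.0. The versions differ, and which one applies is not given in the sources used here.

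Symbols were matched by Ensembl ID (67 genes by name table, 2 by GENCODE 29 name). The genes and lists were chosen with earlier results of these data known. Under R 4.3.3, genes were kept by filterByExpr (17575 genes), scaled by TMM and fitted over all 6 libraries with edgeR 4.0.16 (glmQLFit, glmQLFTest, group term, 3 residual degrees of freedom). Calls have a Benjamini-Hochberg adjusted p under 0.05 over all genes tested. CPM are counts scaled to 1e+06 of the TMM-adjusted library, and ± after a log2 change is the standard error. Depth was 20061471 to 22351532 counts, and the floor for a group at 0 is 3 counts a library.

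Values in every library are given for the 2 genes of each class with the highest control CPM per kilobase, for the 3 smallest and 3 largest changes per comparison at an average log2 CPM of at least 2, for genes called against the majority, and for copies on chromosome 1; of the lists, for up to 4 genes with the smallest adjusted p and for NPAT and SLBP, of which a part is printed. Alternatives were relative log expression scaling, DESeq2 1.42.0, stricter or no filtering, a fit to protein-coding genes, the compared groups alone, a replicate block, spline offsets for exon length and GC, and leaving out each library. The edgeR step was tested on simulated data.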

Additional observations from a re-analysis of the deposited data

How the results depend on the processing

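The count of histone genes lower in PRMT1 KD was 41 to 47 and the median log2 change -1.40 to -1.10 when each library was left out in turn. The median moved to -0.96 with an exon length offset and -0.94 with offsets for length and GC. In MLL2 KO the lower count ranged from 8 to 31 and the higher count from 1 to 2 over the libraries left out, and 2 genes were higher in the fit of the 2 groups alone and with length and GC. In PRMT1 KD against MLL2 KO, the higher count was 0 to 1 over the libraries left out, 0 with at least 10 counts in every library and 0 with the 2 groups alone, because H1-1 was dropped or lost. The median there was -1.08 to -0.75 over the libraries left out, -0.70 with the length offset and -0.69 with length and GC.

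Replicate numbers were not used as pairs in the main fit. The correlations of same-numbered deviations were 0.02 to 0.08 (17575 genes), which cannot exclude a shared batch, as each group has 2 libraries. Over all genes tested, a replicate block raised the lower count from 4439 to 4615 in PRMT1 KD and from 2124 to 2373 in MLL2 KO. With the replicate block, 47 histone genes were lower in PRMT1 KD against control (median -1.22). In MLL2 KO 26 were lower and 1 higher (-0.26), and in PRMT1 KD against MLL2 KO 43 were lower and 1 higher (-0.90).

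Changes of sign fell on values that passed no test. H2AC18 in MLL2 KO was -0.0537 with the block and -0.39 to 0.36 over the libraries left out, and H2AC12 was 0.0196 with length and GC. H1-6 in PRMT1 KD against MLL2 KO was 9e-04 with relative log expression, 0.001 with DESeq2, 0.0063 with no filter, 0.0126 with at least 10 counts, 0.0179 with protein-coding genes alone, 0.29 with length and 0.27 with length and GC. Over the libraries left out, H3C6 in PRMT1 KD ranged from -0.0571 to 0.32. In MLL2 KO the ranges were -0.77 to 0.33 for H4C14, -0.32 to 0.34 for H2BC6, -0.0298 to 0.14 for H3C12, -0.11 to 0.0394 for H1-3 and -1.53 to 0.0451 for H2AC19. In PRMT1 KD against MLL2 KO they were -0.0917 to 0.0473 for H1-6 and -0.12 to 0.53 for H2BC6. The lower count there was 40 to 45. The cause of these moves was not tested.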
